A study of Mus musculus with 46 samples.

Results

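The region described here is the distal end of mouse chromosome 14 around Pcca, from 10 Mb before the start of the gene (position 112484365, GRCm38) to the last base under any peak, 124676126. Its bounds were set by position, as the neighbourhood of the engineered gene, with earlier results of these data known. The region spans 12.2 Mb with 36 protein-coding genes. Of 2037604 peaks in 38 deposited peak lists, 7152 lay in it, and another 70946 lay on the rest of chromosome 14. The first peak inside ran from 113211903 to 113212402 and the last one before it from 110956104 to 110956603, so no peak sits on the boundary. The libraries are native ChIP-seq, in which unfixed chromatin is cut with MNase and pulled down with an antibody, from frozen livers of female mice aged 11 weeks on standard chow. Livers of wild-type (WT) animals were set against those of PA animals, labelled as hypomorphic Pcca-/- (A138T), and both genotypes were on the FVB background. The sources used here do not say how the allele was made, how often it was crossed to FVB or whether animals were pooled. Antibodies to H3K9ac, H3K27ac, H4K16ac and H4K16bu were used on liver preparations labelled A, and antibodies to H4K5ac, H4K5pr, H4K12ac, H4K12pr and H4K16pr (Thermo) on preparations labelled B. Each antibody had 2 WT and 2 PA libraries, which gave 36 libraries in the comparisons. An in-house H4K16pr antibody with 2 WT libraries entered none of them.

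Pcca codes for the biotin-carrying subunit of propionyl-CoA carboxylase, which in mitochondria turns propionyl-CoA from odd-chain fatty acids and several amino acids into methylmalonyl-CoA. When the enzyme fails, as in propionic acidemia, propionyl-CoA builds up. Acetyl (ac), propionyl (pr) and butyryl (bu) groups from the matching acyl-CoAs can be placed on histone lysines, and these marks are found over active promoters and enhancers. A mouse with an engineered allele can also differ from its controls near that allele, and comparing the neighbourhood of Pcca with the rest of its chromosome asks whether differences in these marks gather there.

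The promoters of Pcca and Abcc4 are shown because the first is the engineered gene and the second is the gene of the region with the largest change at a start. Both have 2 starts in the RefSeq annotation (GRCm38.p6), and each window below is 300 bases long, 5′ to 3′ on the strand of the gene, with CG dinucleotides in capitals. The Pcca windows are chr14:122484115-122484414 and chr14:122534078-122534377 on the plus strand, and the Abcc4 windows are chr14:118706170-118706469 and chr14:118676882-118677181 on the minus strand.
Pcca, first start: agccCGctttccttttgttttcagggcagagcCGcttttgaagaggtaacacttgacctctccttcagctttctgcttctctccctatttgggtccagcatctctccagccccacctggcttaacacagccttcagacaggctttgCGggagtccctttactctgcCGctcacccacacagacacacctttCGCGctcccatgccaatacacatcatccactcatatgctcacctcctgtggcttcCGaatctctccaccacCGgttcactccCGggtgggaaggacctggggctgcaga
Pcca, second start: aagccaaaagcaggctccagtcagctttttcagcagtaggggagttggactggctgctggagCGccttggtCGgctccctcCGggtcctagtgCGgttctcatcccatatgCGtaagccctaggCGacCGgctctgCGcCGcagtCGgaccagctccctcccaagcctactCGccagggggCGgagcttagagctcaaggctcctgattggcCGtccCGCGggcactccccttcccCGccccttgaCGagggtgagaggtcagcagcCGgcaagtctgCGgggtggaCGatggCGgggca
Abcc4, upstream start: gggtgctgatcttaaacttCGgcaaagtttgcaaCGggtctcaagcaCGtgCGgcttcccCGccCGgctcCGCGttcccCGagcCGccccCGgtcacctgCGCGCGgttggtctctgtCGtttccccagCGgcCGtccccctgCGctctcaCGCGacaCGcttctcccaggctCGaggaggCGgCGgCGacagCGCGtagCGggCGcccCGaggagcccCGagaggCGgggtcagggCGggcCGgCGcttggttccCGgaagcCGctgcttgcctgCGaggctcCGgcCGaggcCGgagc
Abcc4, downstream start: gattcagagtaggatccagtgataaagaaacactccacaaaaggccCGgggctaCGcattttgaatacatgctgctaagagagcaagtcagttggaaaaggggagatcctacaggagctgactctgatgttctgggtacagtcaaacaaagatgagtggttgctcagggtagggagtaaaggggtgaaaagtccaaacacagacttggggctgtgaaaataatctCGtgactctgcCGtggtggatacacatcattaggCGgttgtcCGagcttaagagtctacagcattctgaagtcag
The Pcca window at the first start held 9 CG dinucleotides, and none of the 36 libraries had a peak touching it. The window at the second start held 21 CG dinucleotides and lay wholly under peaks in 17 of 18 WT and 18 of 18 PA libraries. The upstream Abcc4 window held 41 CG dinucleotides, more than 96.5% of the 32851 RefSeq promoter windows, whose median was 7.0. It was wholly covered in 11 of 18 WT libraries and 17 of 18 PA libraries. The downstream Abcc4 window held 6 CG dinucleotides and lay under no peak in either genotype. The letters GGGCGG, searched on both strands and overlapping the CG count, occurred at 2 positions in the second Pcca window, at 3 in the upstream Abcc4 window and at none in the other two, against 35.7% of all windows with a match. CACGTG matched in the upstream Abcc4 window alone (7.15% of all windows), CCAAT once in each Pcca window (37.4% of all windows), and TATAAA in none of them (13.6% of all windows).

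Peaks covered more of the region in PA livers than in WT livers with every antibody, and by about as much as on the rest of the chromosome. The mean over antibodies was taken for each preparation (n = 4 per genotype). On the log2 scale the covered length in bp was 18.12, 17.96, 18.10 and 18.35 in WT preparations 1A, 2A, 1B and 2B, and 18.33, 18.39, 18.65 and 18.50 in the PA preparations of the same names. The groups overlapped only through WT 2B, which lay above PA 1A. The difference was 0.33, a 1.26-fold greater length (exact two-sided permutation within A and B, p = 0.0556, the smallest value that 36 arrangements allow). On the rest of chromosome 14 the ratio was 1.23 (the same exact test, p = 0.0556). The excess of the region over the rest of the chromosome was 0.04 on the log2 scale (exact two-sided permutation p = 0.278), positive for 8 of 9 antibodies, with H4K16bu the exception. It was 0.079 for the stretch from 5 Mb before Pcca onward (the same exact test, p = 0.0556). These exact tests counted every preparation as a separate liver. The labels do not say whether a same-numbered A and B pair is a single liver. If it is, each genotype has 2 livers, and an exact two-sided permutation p could not fall below 0.333. The totals were not tested with A and B averaged. In bulk liver, fewer cells of a type and a weaker mark per cell cannot be told apart.

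The antibodies differed in the size of the shift. H4K16ac covered 193.7 and 118.4 kb in the WT libraries and 325.2 and 274.4 kb in the PA libraries, a ratio of 1.97 against 1.75 on the rest of chromosome 14. H4K5ac covered 316.4 and 358.9 kb in WT and 462.0 and 453.9 kb in PA, a ratio of 1.36 against 1.27. H4K5pr covered 274.5 and 305.6 kb in WT and 384.3 and 381.8 kb in PA, a ratio of 1.32. H3K9ac showed the smallest ratio, 1.04, from 293.5 and 289.7 kb in WT and 309.6 and 297.8 kb in PA. The WT and PA libraries did not overlap for 7 of 9 antibodies, and they overlapped for H4K16bu and H4K16pr (Thermo). With 2 libraries against 2, an exact two-sided permutation test cannot fall below 0.333, so no single antibody was tested on its own.

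**Figure D1:**
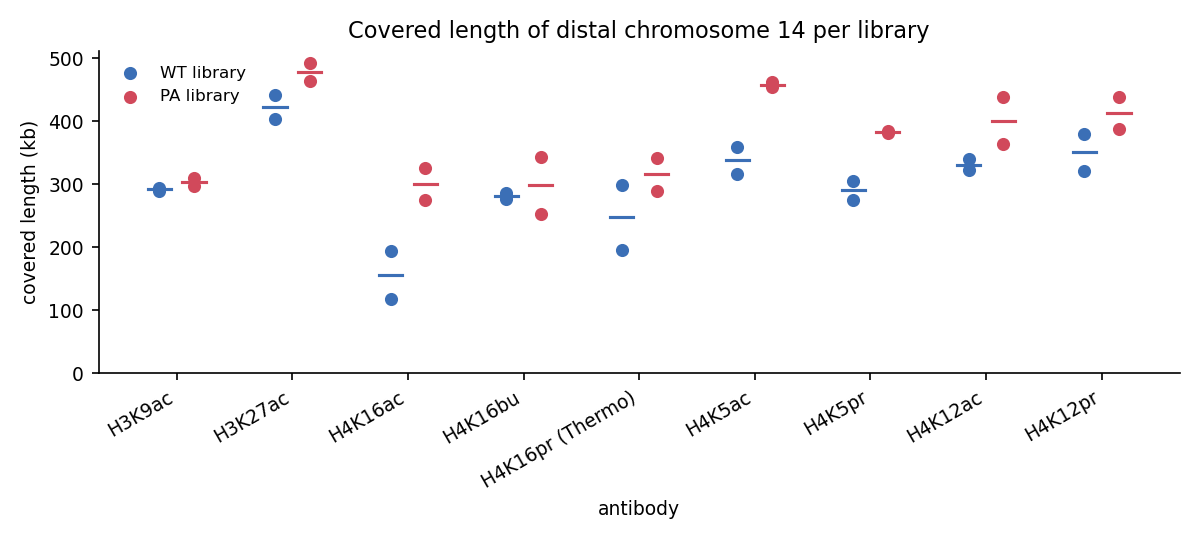
Length of distal chromosome 14 under peaks, in kb, for each WT (blue) and PA (red) library by antibody; lines are the mean of 2 libraries. The PA points lie above the WT points for 7 of 9 antibodies, and the widest gap is in H4K16ac (156.0 kb in WT and 299.8 kb in PA on average).

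The excess was not spread evenly along the region: PA covered less than WT in 5 of the 11 bins of 1 Mb that were covered in both genotypes, among them the megabase that begins at Pcca. In the 3 bins of 1 Mb from 4 Mb to 1 Mb before the Pcca start, PA covered 1.39, 1.27 and 1.39 times the WT length. In the last megabase before Pcca the WT preparations covered 46.2 to 57.1 kb and the PA preparations 67.5 to 76.2 kb, a ratio of 1.34, without overlap. In the megabase that starts with Pcca, WT preparations covered 33.1 to 39.4 kb and PA preparations 30.3 to 37.2 kb, a ratio of 0.951, with overlapping groups. Farther from the gene, between 9 and 8 Mb before it, PA covered 0.293 times the WT length, 1.73 ± 1.10 kb against 5.91 ± 4.49 kb (SD, n = 4), with overlapping groups. The next megabase had the opposite sign, 13.1 ± 3.64 kb in PA against 8.02 ± 1.14 kb in WT. From 7 to 4 Mb before Pcca the ratios were 0.892, 0.850 and 0.928, with overlapping groups. No formal test was run on single bins.

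**Figure D2:**
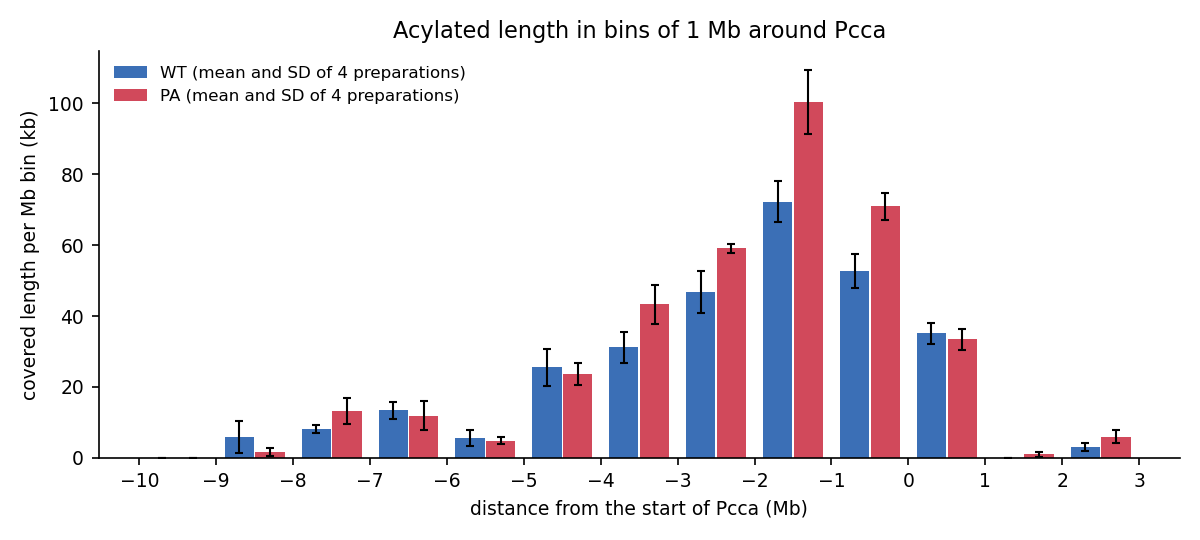
Covered length per bin of 1 Mb, in kb, against the distance from the start of Pcca, as the mean of 4 preparations per genotype with SD bars. PA exceeded WT by 1.27 to 1.39 times in the 4 bins from 4 Mb before Pcca up to its start, and lay below it in the bin that starts with Pcca (0.951) and in 4 bins more than 4 Mb before it.

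Pcca itself kept the marks at its active start and showed no called change. In the 5000 bp window around the second start, the mean covered length was 3701, 3227, 3950 and 3989 bp in WT 1A, 2A, 1B and 2B, and 4015, 4029, 4015 and 4024 bp in the PA preparations. All PA values lay above all WT values, and WT 2A was the lowest; its H4K16ac library covered 1102 bp where the other H4K16ac libraries covered 3962, 4362 and 4286 bp. The difference was 304 ± 154 bp (SE; limma adjusted p = 0.224). Over whole Pcca the difference was -1020 bp (limma adjusted p = 0.571), so the direction at the start is not that of the gene. Merging the 36 libraries gave 46 marked regions inside Pcca, of which 2 were present in all 36 libraries, 13 in WT libraries alone and 10 in PA libraries alone. Most of those found in 1 genotype alone had a peak in a single library. The most widely found of them had a peak in 5 WT libraries (122559781 to 122561277) and in 3 PA libraries (122691113 to 122692004). No share over other genes is at hand to set beside these counts. The most unequal of the 46 regions, from 122579990 to 122582112, had a peak in 9 WT and 3 PA libraries.

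None of the genes nearest to Pcca was called. Zic5 and Zic2, zinc-finger transcription factors of the developing brain that lie just before Pcca, had no peak at their starts or bodies in any library. Gm46487, an annotated gene inside Pcca with no annotated start, was covered for 1440 ± 484 bp in WT and 842 ± 253 bp in PA at its better marked end (SD, n = 4). It was lower in PA with 9 of 9 antibodies, with overlapping preparations, and missed the threshold (-598 ± 177 bp, SE, limma adjusted p = 0.0845); after quantile normalization it passed, at -825.3 bp and an adjusted p of 0.0303. Ggact, a gamma-glutamylamine cyclotransferase gene on the far side of Pcca, was covered for 3092 ± 65.0 bp in WT and 3201 ± 142 bp in PA (adjusted p = 0.584). Tmtc4, an endoplasmic reticulum O-mannosyltransferase gene, was covered for 2045 ± 329 bp and 2104 ± 274 bp (adjusted p = 0.796).

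Tiles of 10 kb were compared next, fitted over the whole genome. Of 282 tested tiles of the region 28 were higher in PA (limma adjusted p under 0.05), which is 9.93%, close to 9.2% on the rest of chromosome 14 and 9.95% over the genome. Another 8 tiles were lower in PA, which is 2.84%, against 0.867% on the rest of the chromosome and 0.749% over the genome; whether these shares differ was not tested. The median tile differed by 106.7 bp in the region, 149.3 bp on the rest of the chromosome and 158.5 bp over the genome. At an unadjusted p under 0.05 the shares were 23.8% higher and 8.16% lower in the region, 23.6% and 2.38% on the rest of the chromosome, and 25.7% and 2.4% over the genome. Of the 282 tiles, 48 had WT and PA preparations that did not overlap, 17.0% against 13.6% on the rest of the chromosome and 15.0% over the genome. When chromosome 14 was divided into 10 stretches of this length, the share of higher tiles ran from 1.45% to 11.6% and the share of lower tiles in the other 9 from 0 to 2.01%. After quantile normalization, which sets every preparation to the same distribution, the region had 8 higher tiles (2.84%, against 1.58% on the rest of the chromosome and 2.06% over the genome) and 6 lower tiles (2.13%, against 1.36% and 1.39%). Preparations A and B that share a number may be 1 liver, which the labels leave unsaid; the deviations of replicate 1 from replicate 2 correlated between A and B across tiles at 0.319 in WT and 0.143 in PA. With A and B averaged to 2 values per genotype no tile was called anywhere in the genome by limma; at an unadjusted p under 0.05, 57 tiles of the region were higher (20.2%, against 20.9% on the rest of the chromosome and 21.7% over the genome) and 18 lower (6.38%, against 2.34% and 2.14%). Leaving out 1 preparation gave 11 (without WT 1B) to 28 (without PA 2B) higher tiles and 2 (without WT 2A, WT 2B or PA 2A) to 8 (without WT 1A) lower tiles.

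None of the 22 tested tiles that overlap Pcca was called (limma, smallest adjusted p = 0.0725), and their median difference was -18.4 bp. At an unadjusted limma p under 0.05, 0 of the 22 were higher and 3 lower, against 25.7% higher and 2.4% lower over the genome. The nearest higher tile lay 0.594 Mb before the Pcca start, in Ubac2, and the nearest lower tile 1.23 Mb before it, in Farp1. Within 1 Mb of Pcca 5 of 80 tested tiles were higher, 6.25% against 9.93% in the whole region and 9.95% over the genome. None was lower, against 2.84% in the whole region and 0.749% over the genome. At an unadjusted limma p under 0.05, 13 of the 80 were higher, against 23.8% in the whole region and 25.7% over the genome. At the same cut 4 of the 80 were lower, against 8.16% and 2.4%. Whether these shares differ was not tested. Beyond Pcca, toward the chromosome end, the called tiles were 2 higher tiles in Fgf14.

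**Figure D3:**
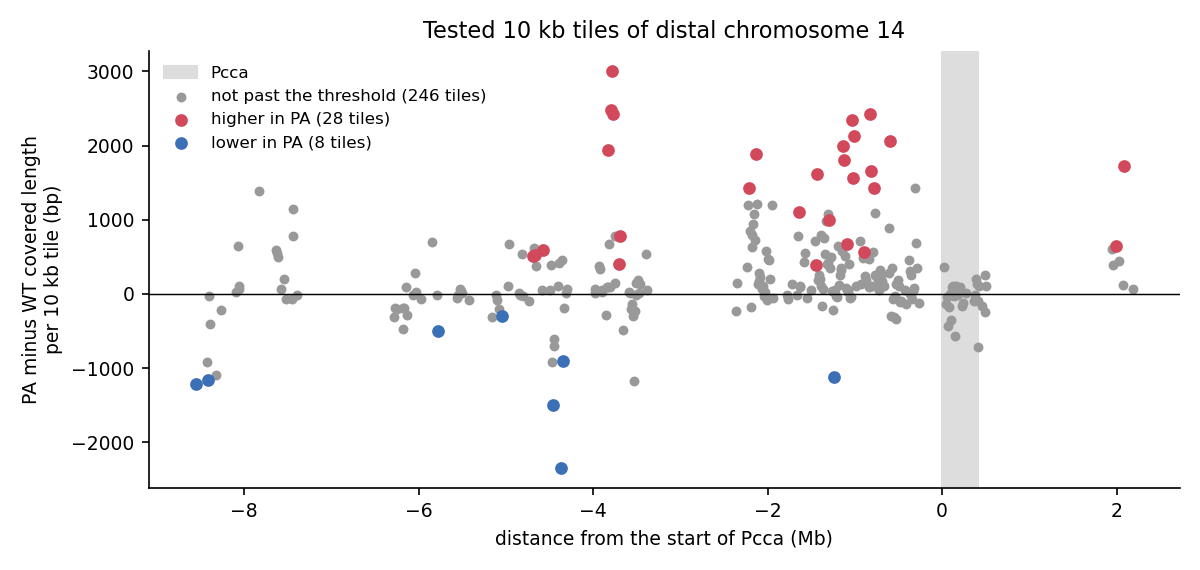
Difference in covered length between PA and WT, in bp, for each tested 10 kb tile against its distance from the start of Pcca; red and blue points passed an adjusted p of 0.05 and the grey band is Pcca. The 28 higher tiles lie between 4.68 Mb before and 2.09 Mb after the Pcca start, 7 of the 8 lower tiles lie before the end of Gpr180, and the 22 tiles at Pcca hold none.

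Abcc4 showed the largest rise of any tile and of any gene start of the region. It encodes MRP4, an ATP-driven exporter of bile acids and cyclic nucleotides on the blood-facing membrane of hepatocytes. Its start window was covered for 958.5, 1279, 360.2 and 1217 bp in WT 1A, 2A, 1B and 2B and for 3270, 3146, 3803 and 2860 bp in the PA preparations, so the lowest PA value was above the highest WT value by more than the whole WT spread. Abcc4 was the 1 gene of 23 tested whose start passed the threshold (4.35%, against 3.37% on the rest of chromosome 14 and 4.23% over the genome), higher in PA by 2316 ± 276 bp (SE; limma adjusted p = 0.00952) and with 9 of 9 antibodies. The call held under every alternative run except A and B averaged, where the adjusted p was 0.104. The window was covered in 13 of 18 WT libraries and in 18 of 18 PA libraries. The antibodies ranged from H3K9ac, at 1860 and 2058 bp in WT and 3521 and 2389 bp in PA, to H4K16ac, which was listed with no peak in either WT library and at 2806 and 3368 bp in PA. The propionyl marks stood at 801 and 1620 bp for H4K5pr in WT against 3697 and 3548 bp in PA, and at 0 and 1507 bp for H4K12pr in WT against 3695 and 2668 bp in PA. The groups did not overlap for any of the 9 antibodies. The same libraries gave the call, so this is not separate support, here or for Slc15a1 and Dock9 below. The share of all genes that separate in this way is not given here.

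The rise at Abcc4 extended into the gene and past its start. The stretch from 118690001 to 118720000, with 3 called tiles, was covered for 4527, 6304, 3801 and 8416 bp in WT and 12459, 13123, 16286 and 12819 bp in PA. A separate tile inside the gene, from 118660001, rose from 381 ± 117 bp to 2319 ± 701 bp (SD, n = 4; limma adjusted p = 0.00884). Over the whole gene WT preparations were covered for 5531 ± 1503 bp and PA preparations for 13109 ± 2346 bp, 2.37 times as much (limma adjusted p = 0.00972). The longest H4K16ac region found in both PA and neither WT library of distal chromosome 14 was the one over the Abcc4 start, 118705351 to 118711257, and 18 regions found in PA alone lay in Abcc4, spread over 9 antibodies.

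Slc15a1, which encodes the proton-coupled peptide transporter PEPT1, rose inside the gene and not at its start. No library had a peak in the window at its annotated start. Its body was covered for 2816, 1869, 3337 and 2854 bp in WT and 5000, 7195, 7953 and 6564 bp in PA, with every PA value above every WT value. The ratio was 2.46 (limma adjusted p = 0.00624), and no antibody showed an overlap between its WT and PA libraries. The stretch from 121450001 to 121480000, which holds all 3 called tiles at the gene, was covered with H4K16ac for 1130 and 500 bp in WT and 7979 and 8882 bp in PA, and with H4K5pr for 5626 and 4354 bp in WT and 10913 and 11646 bp in PA. Its first tile lies mostly past the 3′ end of the gene, at 121459621, and the non-coding gene Gm33299 is annotated in the stretch. Over the gene alone the means were 565 bp in WT and 5993.5 bp in PA for H4K16ac. For H4K5pr they were 3156 and 7434.5 bp.

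Several genes rose along their length. Counted over whole genes, 6 of 27 tested genes were higher in PA (22.2%, against 14.9% on the rest of chromosome 14 and 15.0% over the genome) and none was lower (limma). Beside Abcc4 and Slc15a1 these were Dock9, Stk24, Farp1 and Fgf14. Dock9, a guanine nucleotide exchange factor gene, was covered for 16670, 19098, 18895 and 24386 bp in WT and 28064, 31082, 32765 and 33790 bp in PA, a ratio of 1.59 (adjusted p = 0.00532) with no overlap for any antibody. Stk24, a kinase of the Ste20 family, was covered for 9202, 7108, 8118 and 7412 bp in WT and 16843, 15465, 16912 and 8913 bp in PA (adjusted p = 0.0365). For Stk24 the PA 2B preparation lay just below the highest WT value, and the others lay far above. Farp1, which encodes a FERM domain protein, had a ratio of 1.21 (40663 ± 3284 bp in WT and 49387 ± 3280 bp in PA, adjusted p = 0.0476). Fgf14, known as an intracellular partner of neuronal sodium channels, went from 3034 ± 1026 bp to 7037 ± 2452 bp (adjusted p = 0.0146). The annotated start used for it, 124192546, had no peak, but it lies well inside the gene. The outer end on the minus strand, 124677686, was not compared as a start. Near that outer end, from 124675228 to 124676126, lay an H3K9ac region found in both PA and neither WT library. The start of Dock9 and the better covered ends of Stk24 and Farp1, which have no annotated start in the table, were marked in all 36 libraries and were not called (adjusted p of 0.557, 0.733 and 0.254).

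Of the other higher tiles, several lay in Gpc6, Mbnl2, Cldn10 and Ubac2. Gpc6, a glypican that carries heparan sulfate on the cell surface, had tiles from 117800001 and 117820001 that were at 0, 0, 100 and 0 bp and at 0 bp throughout in WT 1A, 2A, 1B and 2B and rose to 540 ± 160 bp and 525 ± 237 bp in PA (SD, n = 4; limma adjusted p of 0.0119 and 0.0128). Mbnl2, a regulator of alternative splicing, had a tile from 120270001 at its start that rose from 4797 ± 392 bp to 6224 ± 402 bp (limma adjusted p = 0.0230). The Mbnl2 start window rose in the fit with 5 kb on each side (1252 bp, adjusted p = 0.0236) and missed the threshold in the main one (523 bp, adjusted p = 0.0779), and the same held for Uggt2, an endoplasmic reticulum glucosyltransferase relative (504 bp, adjusted p = 0.0665, and 582 bp, adjusted p = 0.0332). Cldn10, a tight-junction claudin, passed with 5 kb on each side as well (398 bp, adjusted p = 0.0375). Ubac2, an endoplasmic reticulum protein, had a tile from 121890001 that rose from 2992 ± 920 bp to 5055 ± 851 bp (adjusted p = 0.0407), a call kept in 4 of 19 alternatives (adjusted p up to 0.189). The Gpc6 tiles kept theirs in 16 and 14 of 19 and the Mbnl2 tile in 11 of 19.

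The 8 lower tiles formed 7 places, and 2 of these were single tiles in an intergenic stretch more than 1 Mb before Gpc5. PA livers had no peak in either tile. The tile from 113930001 was covered for 250, 1743, 953 and 1887 bp in WT 1A, 2A, 1B and 2B and for 0 bp in all 4 PA preparations (-1208 ± 319 bp, SE, limma adjusted p = 0.0421). The tile from 114070001 was covered for 460, 1573, 604 and 1977 bp in WT and again 0 bp in PA (-1153 ± 313 bp, adjusted p = 0.0465). Each was covered in 16 of 18 WT libraries and in 0 of 18 PA libraries. WT replicate 2 had more coverage than WT replicate 1 with 9 of 9 antibodies at both tiles, with medians over antibodies of 1835 and 500 bp at the first and 1881 and 631 bp at the second. For the first tile 3 of 19 alternatives kept the adjusted p under 0.05 (range 0.0153 to 0.190), and for the second 4 of 19 did (range 0.0232 to 0.207); the difference was negative in all of them. The nearest protein-coding gene in the table was Gpc5, another glypican, 1152201 bp and 1012201 bp away, and no non-coding gene was annotated in either tile.

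Nearer to Pcca, a second group of lower tiles lay over Dct, Tgds and Gpr180. Dct encodes dopachrome tautomerase, an enzyme of melanin synthesis. The tile from 118020001 inside it was covered for 904, 1709, 1111 and 2711 bp in WT and for 0, 0, 0 and 475 bp in PA (-1490 ± 345 bp, SE, limma adjusted p = 0.0275), in 14 of 18 WT and 4 of 18 PA libraries. H4K16ac had no peak there in either genotype. Over the whole of Dct the values were 3863 ± 2410 bp in WT and 150 ± 224 bp in PA, and the fit missed the threshold (adjusted p = 0.0526). A tile from 118140001 inside Gpr180, which encodes a seven-transmembrane protein, fell from 930 ± 293 bp in WT to 0, 0, 100 and 0 bp in PA 1A, 2A, 1B and 2B (limma adjusted p = 0.00539), and its neighbour from 118120001 over Tgds, a dehydratase relative, fell from 4882 ± 716 bp to 2538 ± 762 bp (adjusted p = 0.0168). These tiles were lower with 9 of 9 antibodies and kept their calls in 18 and 16 of 19 alternatives, and the Dct tile in 11 of 19. The start windows of Tgds and Gpr180 within the same stretch were marked in all 36 libraries and were not lower, at 2273 ± 181 bp in WT and 2550 ± 381 bp in PA for Tgds and at 2120 ± 266 bp and 2299 ± 260 bp for Gpr180 (adjusted p of 0.374 and 0.547). The last 3 lower tiles were one between Gpc5 and Gpc6 (116710001), one in Gpc6 (117440001) and one in Farp1 (121250001), where the level went from 3686 ± 326 bp to 2568 ± 219 bp (adjusted p = 0.0204). They kept their calls in 6 of 19, 4 of 18 and 12 of 19 alternatives.

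**Figure D4:**
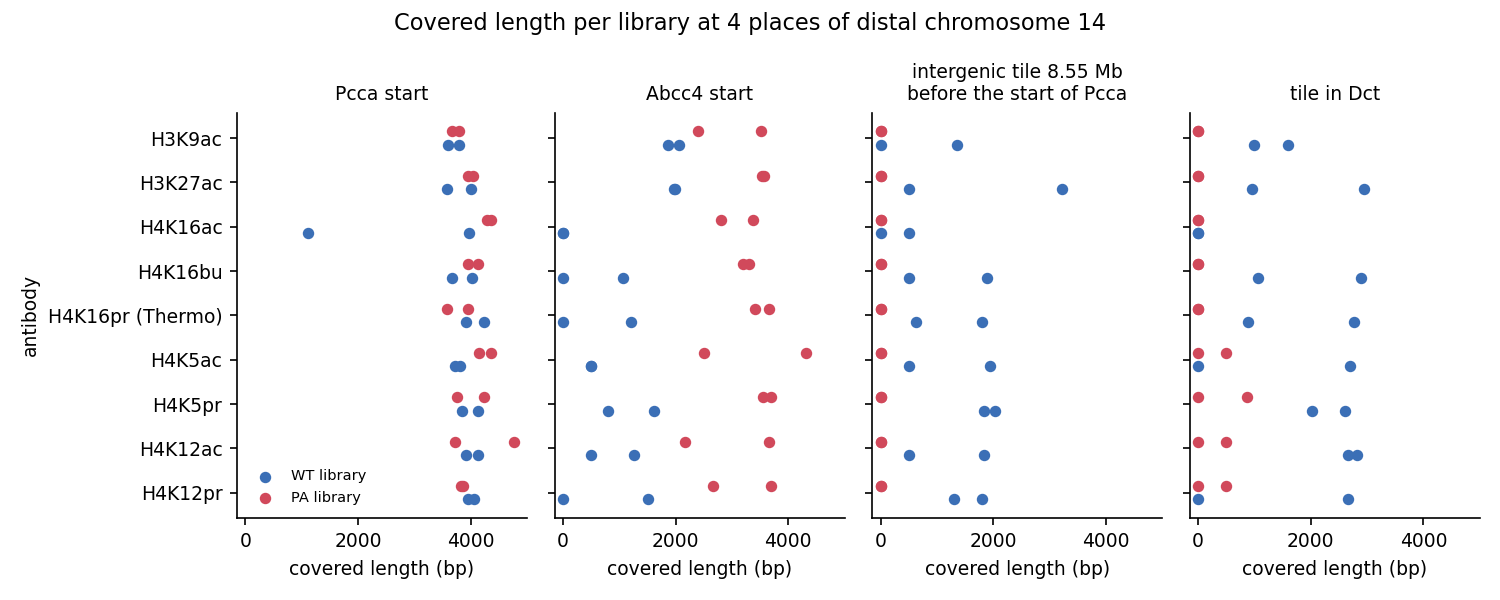
Covered length, in bp, of each WT (blue) and PA (red) library by antibody in the 5000 bp windows at the Pcca and Abcc4 starts and in 2 lower 10 kb tiles, one 8.55 Mb before Pcca and one in Dct. The genotypes overlap at Pcca for 6 of 9 antibodies, separate at Abcc4 for 9 of 9, and PA libraries sit at 0 in the intergenic tile.

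Single antibodies were compared through regions present in both libraries of a genotype and in neither of the other. Of 2805 merged regions over 9 antibodies, 175 were found in PA only (6.24%, against 5.23% on the rest of chromosome 14 and 5.39% over the genome) and 84 in WT only (2.99%, against 1.68% and 1.59%). Every antibody had more PA-only than WT-only regions, and both shares exceeded those of the rest of the chromosome for 8 of 9 antibodies, with H3K27ac the exception for PA-only and H4K12pr for WT-only regions. For H4K12ac the WT-only share was 4.73% against 1.74%, and for H4K16pr (Thermo) it was 2.56% against 1.11%. These shares were not tested against each other. A place found with several antibodies counts once for each, in these shares and in the counts that follow. Of the 84 WT-only regions, 23 lay between 9 and 8 Mb before Pcca, where 1 PA-only region lay, and 16 between 5 and 4 Mb before it. The 23 fell at the places from 113932053 and 114072838 (7 antibodies each), 114089859 (4), 114061822 (3) and 114165087 (2). In genes, Dct held 13 WT-only regions from 8 antibodies and no PA-only region, while Dock9 held 19 PA-only and 2 WT-only regions and Gpc6 14 and 4. Pcca held 4 of each. The 13 regions of Dct fell at the places from 118019677 and 118017367 (4 antibodies each), 118038215 (3) and 118039954 (2).

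Most places found in 1 genotype came from 1 or 2 antibodies. Of 104 PA-only places 20 were found with 3 or more antibodies, and of 48 WT-only places 9 were, with 2 of each found with 5 or more. In WT only, the place from 113932053 to 113935274 was found with 7 antibodies and so was the one from 114072838 to 114075044, both with a peak in 16 WT and 0 PA libraries. Another intergenic place, 114089859 to 114091284, was found with 4 antibodies (11 WT and 0 PA libraries). In PA only, a place inside Fgf14 from 124439121 to 124440360 was found with 5 antibodies, with a peak in 0 WT and 14 PA libraries. A place inside Stk24 from 121358041 to 121360024 was also found with 5 antibodies (4 WT and 17 PA libraries), and one outside any protein-coding gene, 32819 bp from Abcc4, from 118740675 to 118743091, was found with 4 (0 WT and 12 PA libraries). Antibodies on the same letter share a preparation, so recurrence between them is not independent.

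**Figure D5:**
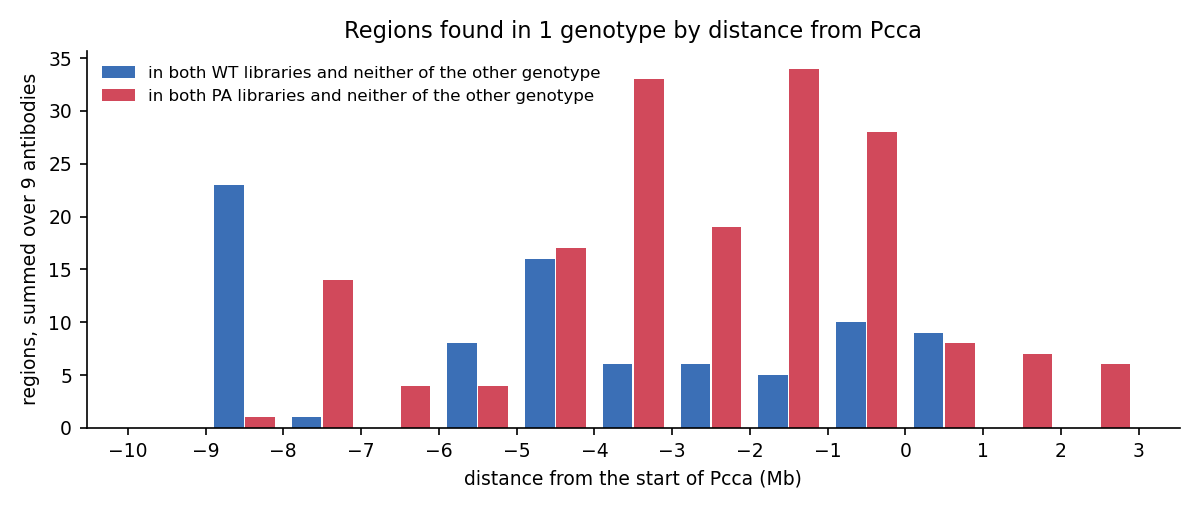
Number of regions found in both libraries of 1 genotype and neither of the other, summed over 9 antibodies, by distance from the start of Pcca in bins of 1 Mb. A place found with several antibodies counts once for each. WT-only regions are most numerous 9 to 8 Mb before Pcca (23 against 1) and PA-only regions 2 to 1 Mb before it (34 against 5).

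At gene starts no other gene of the region passed the threshold. Of 36 protein-coding genes 23 had a covered window in at least 2 libraries, 17 were higher and 6 lower in PA by their means, and 15 were marked in all 36 libraries. In 4 of the 23 (17.4%, against 14.3% on the rest of chromosome 14 and 13.9% over the genome) the preparations did not overlap, namely Abcc4, Uggt2, Mbnl2 and Pcca, all higher in PA. Uggt2 was covered for 687 ± 213 bp in WT and 1191 ± 306 bp in PA, higher with 9 of 9 antibodies. Over the 23 tested genes the median difference was 179 bp, against 271 bp on the rest of chromosome 14 and 248 bp over the genome. No gene start was called lower by limma (0.0%, as on the rest of chromosome 14, and 0.25% over the genome). At an unadjusted p under 0.05, 1 start was lower (4.35%, against 0.632% and 1.38%) and 4 were higher (17.4%, against 31.4% and 27.7%). After quantile normalization 1 start was higher and 1 lower, 4.35% each, against 0.211% each on the rest of the chromosome and 0.744% and 0.501% over the genome. Over the genome 4.23% of gene starts were called higher, so a count of 0 in lists as short as the following is not read as a result about them. In the list of endoplasmic reticulum folding and membrane traffic, which also holds Ipo5, 5 of 5 genes were tested and none called. Dnajc3, a cochaperone of the endoplasmic reticulum, was covered for 4562 ± 147 bp in WT and 4222 ± 548 bp in PA (adjusted p = 0.298), and Ipo5, an importin, for 2605 ± 469 bp and 3484 ± 396 bp (adjusted p = 0.0965). Of 5 metabolic genes 4 were tested and none called. Beside Pcca these included Clybl, a mitochondrial lyase for citramalyl-CoA, at 2066 ± 270 bp in WT and 2501 ± 278 bp in PA (adjusted p = 0.187). The G protein-coupled receptor genes Gpr18 and Gpr183 and Gpr180 gave no call (3 of 3 tested), and neither did the 2 tested heparan sulfate genes. The developmental factors Sox21, Zic2 and Zic5 were unmarked in both genotypes. The other genes of the propionyl-CoA pathway, which lie on other chromosomes, gave no call either: 6 of 6 were tested, with a median difference of 321 bp, and the beta subunit gene Pccb was covered for 4070 ± 221 bp in WT and 4340 ± 109 bp in PA (adjusted p = 0.212).

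The tissue label was checked on the same scale. The 5 hepatocyte markers were all covered, with summed window lengths of 22081 to 23742 bp in WT and 22615 to 24324 bp in PA preparations, and none was called. Of 4 cholangiocyte markers Krt19, Krt7 and Epcam were uncovered and Sox9 rose, from 1877 to 2918 bp on average (limma adjusted p = 0.0255). All 4 Kupffer cell markers, all 4 endothelial and all 4 stellate cell markers were tested with no call, as were 2 of 4 lymphocyte markers, while Cd3e and Ms4a1 were uncovered. In the B preparations the Kupffer cell markers were at 0 bp, except Clec4f at 100 bp in WT 1B. The stellate markers Lrat and Des were at 0 bp there too, except Lrat at 126 bp in PA 1B. The hepatocyte marker Apoa1 filled its 5000 bp window in PA 1A, 2A and 2B. No call in windows so near empty or full is not read as no change. The summed endothelial windows spanned 3919 to 8615 bp in WT and 6775 to 8960 bp in PA. The part of cell makeup in the results above was not tested.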

How the data were processed

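Each deposited file lists the peaks of 1 ChIP-seq library by chromosome, start and end, in base pairs and with no other score or count, per the files themselves; no peak is shorter than 500 bp. The positions were taken as GRCm38 (mm10). Per the submitters' processing notes, the tools were HOMER 4.10, bedtools 2.31.0, Bowtie2 2.5.1, cutadapt 3.5, R 4.1.2 and SAMtools 1.17, without their roles. The sources used here do not give read depth, the peak threshold or any use of the 8 inputs, so a place without a peak is one not listed, and no counting interval can be given. Libraries held 16368 to 70886 peaks, 46 to 259 of them in the region.

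Covered base pairs per 10 kb tile, or within 2.5 kb on each side of a gene's annotated start (RefSeq GRCm38.p6), were averaged over antibodies for each preparation. The annotated start with the highest coverage was used; where the table gave none (5 of the 36 genes), the better covered gene end was used in place of the planned start. Features covered in at least 2 libraries (74931 tiles, 14781 genes) were fitted genome-wide by limma 3.58.1 under R 4.3.3, on genotype and letter with the trend, and p-values were Benjamini-Hochberg adjusted (threshold 0.05). The limma fits were tested on simulated data. For tiles they recovered 38% of changes of 1000 bp and 62% of changes of 2000 bp, with 5 false calls among 105. For genes they recovered 59% and 96%, with 11 false calls among 166. A feature that was not called can therefore still differ. Real covered lengths are bounded, and same-numbered A and B may come from the same liver. The simulated false calls therefore do not give the error rate of the real calls. Totals were compared by exact two-sided permutation with every preparation counted as a separate liver, and not with A and B averaged. Replicate numbers did not pair the genotypes (correlation of deviations -0.035 for A and -0.041 for B); between A and B of 1 genotype it was 0.319 in WT and 0.143 in PA, and A and B averaged was an alternative. Nothing in the labels says that same-numbered A and B, or all replicates, are separate animals beyond being called biological replicates, and p-values measure the spread between these samples. The other software was matplotlib 3.10.9, scipy 1.17.1, pandas 2.3.3 and numpy 2.4.6 under Python 3.11.15.

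Named genes were Pcca and its 2 nearest neighbours on each side, every called gene, the 5 largest differences in each direction and members of role lists; tiles were every called one. The region, lists and rules were chosen with earlier results of these data known. Whole-gene values and 5 kb windows were alternatives.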

Additional observations from a re-analysis of the deposited data

Results flagged for a closer look

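Among 104 groups of 4 preparations checked, 8 held a preparation far from the other 3. For normally spread values chance flags about 1 in 20 groups. A group with 3 preparations at 0 and 1 covered is always flagged, whatever the covered length, so that rate does not hold for it. WT 2B had the largest share of the region relative to the rest of chromosome 14, at -3.55 on the log2 scale, where the other WT preparations lay at -3.70 or below. At the start of Gpr183 WT 2B had no coverage (0.0 bp) where the others had 864.6 bp or more. In 6 tiles 1 preparation was covered and the other 3 of its genotype were at 0: PA 1B at 226.6 bp in the tile from 116710001, WT 1B at 100 bp in the one from 117800001, PA 2B at 474.6 bp in the one from 118020001 in Dct, PA 1B at 100 bp in the one from 118140001, WT 1B at 413.6 bp in the one from 121390001 and WT 2B at 144.4 bp in the one from 124480001.

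At the start of Dnajc3 the A preparations were higher in PA than in WT by 160.5 bp, both PA values above both WT values, and the B preparations were lower, by -840.6 bp on average. The A and B preparations carry different antibodies, and this difference between them was not tested.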

How the results depend on the processing

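The covered length of the region was greater in PA under every alternative run, with or without the replicate block (0.33 on the log2 scale, exact permutation p = 0.125 with 16 arrangements), and it ranged from 0.20 to 0.40. The excess over the rest of chromosome 14 stayed between 0.00442 and 0.085 and reached an exact permutation p of 0.0556 for a region that starts 5 Mb before Pcca (0.079) and without WT 2B (0.077), while it was 0.00442 without WT 1B. Higher tiles numbered 17 with peaks of at least 1000 bp, 17 without H4K16ac, 7 with acyl marks only, 8 after quantile normalization and 0 with A and B averaged; lower tiles numbered 3, 6, 1, 6 and 0 in the same order. Lower tiles also numbered 4 in the region from 5 Mb before Pcca, 4 with acetyl marks only, 3 without the limma trend and 5 with 5 kb tiles. The replicate block, whose numbers do not pair the genotypes, gave 31 higher and 11 lower tiles, kept all 36 tiles called and left 1 gene called. No called tile changed sign. Leaving out 1 preparation gave 11 to 28 higher tiles and 2 to 8 lower tiles; the higher count was 13 without WT 2A, 15 without WT 2B and 15 without PA 2A, and the lower count 5 without WT 1B, 3 without PA 1A, 3 without PA 1B and 4 without PA 2B.

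Genes higher in PA numbered 4 with 5 kb on each side, 6 over whole genes, 0 with A and B averaged and 1 to 2 when a preparation was left out (2 without PA 2B, where Uggt2 passed); 1 gene, Gm46487, was lower after quantile normalization. Regions found in PA only numbered 110 with peaks of at least 1000 bp, 74 with acyl and 101 with acetyl marks only, and regions found in WT only 26, 29 and 55; from 5 Mb before Pcca 52 were in WT only. With a preparation left out, so that 1 library decides, PA-only regions numbered 209 to 434 and WT-only regions 106 to 228. PA-only counts over 1.5 times the reported one came without PA 1A (337), PA 2A (329), PA 1B (380) or PA 2B (434), and such WT-only counts without WT 1A (181), WT 2A (207), WT 1B (228) or WT 2B (195).

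Differences of genes that were not called changed sign as follows, in bp. With acyl marks only Tmtc4 stood at -117.1, Dzip1 at 41 and Gpr183 at 78.75. After quantile normalization Pcca stood at -79.84, Ggact at -288.7 and Tmtc4 at -274.1. With 5 kb on each side Pcca stood at -139.4. Over whole genes Pcca stood at -1020, Ggact at -781.5 and Gpc6 at 2910. With a preparation left out Tmtc4 ranged from -26.49 to 145.4, Gpc6 from -219.7 to 99.62 and Gpr183 from -231.4 to 114.4. The causes were not tested, apart from fewer samples, marks or peaks by construction. Read depth is unknown, so the depth limit of an unlisted peak cannot be given.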
